A study of Homo sapiens with 6 samples.

Results

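The genes described here are 50 mitotic and G2/M genes, listed by their known roles in cell division and not by a threshold on values of this study, and followed in AGS cells after siDUB1 transfection. All 50 were found among the 18597 genes of the deposited tables, and all 50 were among the 10994 genes that passed the filter on low values. AGS is an established line of human gastric adenocarcinoma. Cells were transfected with siDUB1, a small interfering RNA directed at DUB1, or with siControl, a control small interfering RNA, and each group held 3 libraries of total RNA. The siRNA sequences, dose and harvest time are not given in the sources used here, and nothing there says whether the replicates were separate cultures, so the p-values measure only the spread between these libraries, which may be technical. Expression is given in FPKM, fragments scaled to transcript length and to the library's mapped total, so that levels of different genes can be compared per length. The sequencing depth is unknown.

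Entry into mitosis is driven by cyclin B bound to the kinase CDK1, which is held inactive by inhibitory phosphorylation until CDC25 phosphatases remove it. The kinases of the Aurora, Polo and NEK families then build the spindle, the checkpoint holds anaphase until the chromosomes are attached, and the anaphase-promoting complex triggers separase by destroying securin. Many of these genes are transcribed together in G2 and M phase under MuvB complexes with MYBL2 and FOXM1, so their transcripts are widely used as a measure of how much of a cell population is dividing. In bulk RNA, fewer cells in G2 and M phase and less of these transcripts per cell cannot be told apart.

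One library stood apart from the other 5. Pearson correlations of log2 values between libraries of 1 group were 0.998 to 0.999, except those of siDUB1 replicate 3 with its fellow replicates, 0.979 and 0.977. Its median gene had 1.75 FPKM, and the median gene of the other libraries 2.91 to 3.07 FPKM. Results are therefore given with all 6 libraries and without siDUB1 replicate 3. Among markers, KRT8, KRT18, KRT19, EPCAM and CLDN4 were above 100 FPKM in every library, while the epithelial cadherin CDH1 was between 0.85 and 3.22 FPKM. The gastric markers GKN1, at 0 in every library, TFF2 and MUC5AC, both at most 0.38 FPKM, were absent or nearly so. The 6 gastric markers summed to 153, 166 and 228 FPKM in siDUB1 libraries, against 67.1, 67.4 and 61.4 FPKM in siControl libraries. Most of that sum was the mucin MUC1, at 134, 145 and 203 FPKM in siDUB1 libraries, against 53.3, 51.0 and 47.0 FPKM in siControl libraries. TFF1 had 17.1, 19.1 and 24.3 FPKM and CLDN18 1.44, 1.42 and 0.50 FPKM in siDUB1 libraries, against 13.3, 15.9 and 13.9 FPKM and 0.41, 0.45 and 0.40 FPKM in siControl libraries. MUC1, TFF1, CLDN18 and TFF2 were higher in every siDUB1 library than in any siControl library, as were 24.8% of all genes tested. GKN1 and MUC5AC were not, and CLDN18 and TFF2 were too low to be tested. Of 5 fibroblast, 5 immune and 4 endothelial markers, COL1A1 and LYZ were above 1 FPKM and the other 12 at or below 0.37 FPKM, among them PTPRC, CD3E, CD14, DCN and PECAM1. The immune markers, nearly all LYZ, summed to 632, 633 and 362 FPKM in siDUB1 libraries, against 187, 187 and 186 FPKM in siControl libraries. The fibroblast markers, nearly all COL1A1, summed to 8.33, 9.64 and 11.1 FPKM in siDUB1 libraries, against 19.6, 18.8 and 19.0 FPKM in siControl libraries. The part of any of these markers in the results was not tested. USP36, the gene for which DUB1 is a synonym in RefSeq and taken as the target on that ground, had 4.11, 4.75 and 2.59 FPKM in siDUB1 replicates 1, 2 and 3, against 9.16, 6.74 and 7.25 FPKM in siControl replicates 1, 2 and 3. The groups did not overlap, and USP36 fell by 0.87 on the log2 scale (SE 0.21, limma adjusted p = 0.0432), a call that was lost when any siControl library was left out (limma adjusted p 0.125 to 0.179), siDUB1 replicate 1 (0.0878) or siDUB1 replicate 2 (0.0509).

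Across the 50 genes, changes were few and went both ways. With all 6 libraries, CDC25C and PTTG1 rose and CDC25B and CEP55 fell, while the other 46 did not pass a limma adjusted p of 0.05. At an unadjusted p of 0.05, 6 of the 50 were higher and 6 lower. Over all genes tested, 14.1% passed, 8.13% higher and 5.92% lower, and the members' shares of 4% higher and 4% lower stood below both. The median change of the 50 genes was -0.13 on the log2 scale, with 33 negative and 17 positive, and the median of all genes tested was -0.06. CEP55 alone among the 50 changed by at least 1 on the log2 scale. Corrected for GC content and length, the median of the 50 genes with all 6 libraries was -0.002, with 25 negative and 25 positive. The median of all genes in that fit was -0.065.

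Without siDUB1 replicate 3, many more genes passed. There, 18 of the 50 genes rose and 9 fell, which is 36% and 18%, beside 31.7% and 25.6% of all genes tested, of which 57.3% passed in either direction. The share that rose lay near that background and the share that fell below it. The median change was 0.07, with 34 positive and 16 negative, against 0.02 for all genes tested. The 4 genes called with all libraries were called in the same direction, and 23 further genes passed, 16 higher and 7 lower. Summed over the 50 genes, expression was 2807, 2783 and 2419 FPKM in siDUB1 replicates 1, 2 and 3, against 2626, 2663 and 2706 FPKM in siControl replicates 1, 2 and 3.

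**Figure D1:**
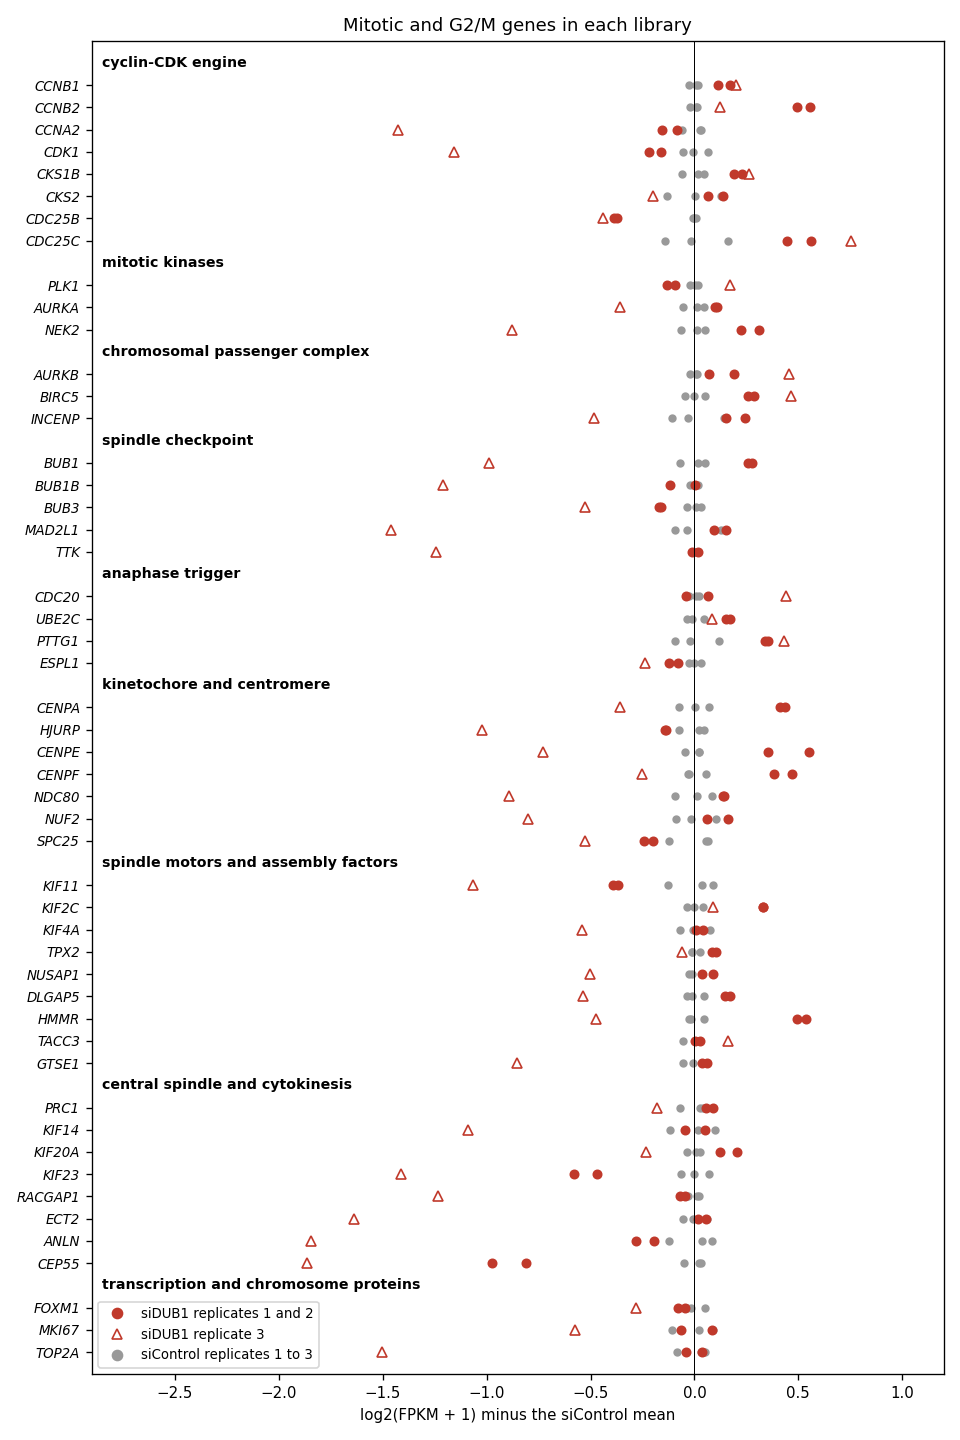
Each row is 1 of the 50 genes, grouped by role, and each point is 1 library, placed at log2(FPKM + 1) minus the mean of the 3 siControl libraries. The siControl points lie close to 0, siDUB1 replicates 1 and 2 lie on both sides of it, and siDUB1 replicate 3 (open triangles) is the lowest of the 6 libraries in 38 genes.

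CDC25C, a phosphatase that activates CDK1 at mitotic entry (Gene ID 995, GRCh38 chromosome 5, 138285265 to 138338355), rose. It had 11.5, 10.5 and 13.3 FPKM in siDUB1 replicates 1, 2 and 3, against 6.66, 8.46 and 7.36 FPKM in siControl replicates 1, 2 and 3. Every siDUB1 library was above every siControl library, and replicate 3 was the highest of all. The means were 11.8 ± 1.39 FPKM in siDUB1 and 7.49 ± 0.907 FPKM in siControl cells (SD, n = 3 each), a ratio of 1.57, and the change was 0.59 on the log2(FPKM + 1) scale (SE 0.14, limma adjusted p = 0.0416). Without siDUB1 replicate 3 it was 0.50 (SE 0.09, limma adjusted p = 0.000416). CDC25C overlaps FAM53C in the genome, which reached 15.68 FPKM, and the use of strand in the counting is not given, so reads of one may have been counted for the other.

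CDC25B, the phosphatase of the same family that acts earliest, at the centrosome in G2 (Gene ID 994, chromosome 20, 3786951 to 3806115), moved the other way. It had 66.2, 67.0 and 63.9 FPKM in the siDUB1 libraries, in the order of their replicates, against 87.4, 86.7 and 86.9 FPKM in the siControl libraries. The groups did not overlap, and both were tight. Means were 65.7 ± 1.59 FPKM in siDUB1 and 87.0 ± 0.340 FPKM in siControl cells (SD, n = 3 each), and CDC25B fell by 0.40 on the log2 scale (SE 0.07, limma adjusted p = 0.0198). Its change without siDUB1 replicate 3 was -0.38 (limma adjusted p = 2.15e-05). As a ratio of their FPKM, CDC25C stood to CDC25B at 0.173, 0.157 and 0.208 in the siDUB1 libraries, against 0.0762, 0.0976 and 0.0847 in the siControl libraries. This pair was set side by side after its values were seen, so no test of the ratio is given.

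PTTG1, or securin, the inhibitor of separase that the anaphase-promoting complex destroys (Gene ID 9232, chromosome 5, 160421855 to 160428744), rose. It had 187, 189 and 199.7 FPKM in siDUB1 libraries, against 138, 145 and 160.3 FPKM in siControl libraries. The lowest siDUB1 value was above the highest siControl value. The means were 192 ± 6.67 FPKM in siDUB1 and 148 ± 11.3 FPKM in siControl cells (SD, n = 3 each), and the change was 0.38 on the log2 scale (SE 0.09, limma adjusted p = 0.0385), or 0.35 without siDUB1 replicate 3 (limma adjusted p = 0.000377). Its close copy PTTG2 was at most 0.07 FPKM in any library.

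CEP55, a midbody protein that recruits the machinery of abscission at the end of cytokinesis (Gene ID 55165, chromosome 10, 93496612 to 93529092), had the largest change of the 50 genes. Its values were 32.5, 28.8 and 15.1 FPKM in siDUB1 libraries, against 58.5, 55.7 and 58.9 FPKM in siControl libraries. Replicate 3 was the lowest, and the other siDUB1 libraries were also far below every siControl library. Means were 25.5 ± 9.16 FPKM in siDUB1 and 57.7 ± 1.75 FPKM in siControl cells (SD, n = 3 each), a ratio of 0.442, and CEP55 fell by 1.22 on the log2 scale (SE 0.27, limma adjusted p = 0.033). Without siDUB1 replicate 3 the change was -0.89 (SE 0.06, limma adjusted p = 1.36e-07). These 4 calls needed all 3 siControl libraries: leaving out any siControl library ended all of them, with limma adjusted p-values of 0.116 to 0.178 for CDC25C, 0.109 to 0.118 for CDC25B, 0.11 to 0.165 for PTTG1 and 0.122 to 0.141 for CEP55. Leaving out siDUB1 replicate 1 kept CEP55 (limma adjusted p = 0.0461) and ended CDC25C (0.102), CDC25B (0.0715) and PTTG1 (0.0962), and leaving out siDUB1 replicate 2 ended all 4 (0.0632, 0.0523, 0.0789 and 0.0527 for CDC25C, CDC25B, PTTG1 and CEP55). The direction of each was kept under each of the 18 alternatives run, scalings included.

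**Figure D2:**
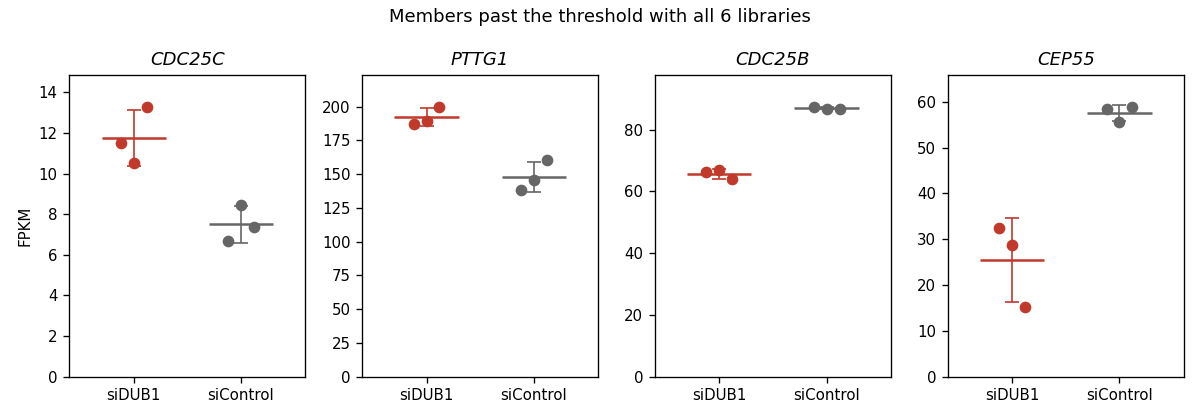
FPKM of CDC25C, PTTG1, CDC25B and CEP55 in each library, with the mean (line) and SD (bar) of 3 libraries per group and the axis starting at 0. The siDUB1 and siControl points do not overlap in any of the 4 panels.

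The promoters of the 4 called genes, and of CCNB2 and KIF23, chosen after their values were seen, are shown because mitotic genes are known to share a pair of short elements: the CHR (cell cycle genes homology region, commonly TTTGAA and in some genes TTTAAA), to which MuvB complexes bind, and the CCAAT box bound by NF-Y. Each line gives the 120 bases before the start that most protein-coding transcripts of the gene share, 5′ to 3′ on the strand of the gene, from RefSeq's GRCh38.p14 tables. Capitals mark whole matches to either form of the CHR or to the CCAAT box on either strand. The stretches are chr5:138331878-138331997 on the minus strand for CDC25C and, on the plus strand, chr20:3795669-3795788 for CDC25B, chr5:160421735-160421854 for PTTG1, chr10:93496492-93496611 for CEP55, chr15:59105026-59105145 for CCNB2 and chr15:69414229-69414348 for KIF23.
CDC25C: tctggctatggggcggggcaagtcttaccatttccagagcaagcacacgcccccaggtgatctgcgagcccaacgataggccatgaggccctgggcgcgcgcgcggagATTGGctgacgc
CDC25B: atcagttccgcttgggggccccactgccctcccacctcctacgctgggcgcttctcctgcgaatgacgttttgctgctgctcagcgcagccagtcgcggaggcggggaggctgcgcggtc
PTTG1: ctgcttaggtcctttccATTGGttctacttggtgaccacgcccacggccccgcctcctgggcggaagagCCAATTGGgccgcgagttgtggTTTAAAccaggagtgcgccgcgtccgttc
CEP55: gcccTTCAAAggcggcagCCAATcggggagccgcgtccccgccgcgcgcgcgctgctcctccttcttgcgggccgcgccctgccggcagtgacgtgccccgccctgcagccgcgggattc
CCNB2: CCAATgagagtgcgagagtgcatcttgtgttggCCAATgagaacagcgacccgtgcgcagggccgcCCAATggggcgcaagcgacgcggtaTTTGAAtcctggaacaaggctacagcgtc
KIF23: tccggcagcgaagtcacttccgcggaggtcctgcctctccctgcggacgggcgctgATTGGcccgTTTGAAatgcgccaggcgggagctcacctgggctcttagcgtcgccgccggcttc

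Among these, CCNB2 and PTTG1 hold the element 29 bases before the start, TTTGAA in CCNB2 and TTTAAA in PTTG1, with CCAAT matches further upstream, of which a pair overlap in PTTG1. KIF23 holds TTTGAA with its first base at -55, and CEP55 holds TTCAAA, the reverse complement, near the far end of its stretch and again across the start. The printed stretch of CDC25B holds no match, and that of CDC25C holds a CCAAT match alone, with a TTTGAA 44 bases past the start. Windows of 250 bases before to 50 after the start were found for 42 of the 50 genes and for 8762 of all genes tested. TTTGAA was present on either strand in 31 of the 42 (73.8%), against 9.24% of all windows, TTTAAA in 31% against 6.72%, and CCAAT in 83.3% against 37%. At least one of TTTGAA and TTTAAA stood in 36 of the 42 windows. Of these 36 genes, 2 rose and 1 fell with all libraries (median -0.14), and of the 6 without either, none rose and 1, CDC25B, fell (median -0.13). The median hardly differed between genes with and without the element, although 6 genes are few. A match in letters is no measure of binding.

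The engine of mitotic entry is represented by 8 genes. Of these, 1 rose and 1 fell with all libraries, the CDC25 genes above, where 8.13% of all genes tested rose and 5.92% fell. Without siDUB1 replicate 3, 4 rose and 2 fell, 50% and 25%, beside 31.7% and 25.6% of all genes tested. CCNB1, cyclin B1, had 101, 96.9 and 103 FPKM in siDUB1 libraries, against 87.9, 90.4 and 89.8 FPKM in siControl libraries, without overlap (0.16 on the log2 scale, limma adjusted p = 0.172). CCNB2, cyclin B2, had 75.6, 72.4 and 55.8 FPKM in siDUB1 libraries, against 51.4, 51.5 and 50.4 FPKM in siControl libraries. Its change was 0.39 (SE 0.13, limma adjusted p = 0.0889) with all libraries and 0.52 (SE 0.05, limma adjusted p = 2.24e-06) without siDUB1 replicate 3, the highest of the 50 genes there. CCNB1 also passed without that library (0.14, limma adjusted p = 0.0207).

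CDK1, their partner kinase, had 63.9, 66.6 and 32.9 FPKM in siDUB1 libraries, against 74.1, 71.6 and 77.9 FPKM in siControl libraries, a change of -0.51 (limma adjusted p = 0.219). The groups did not overlap, and siDUB1 replicate 3 was far below the other siDUB1 libraries. Without it, CDK1 fell by 0.19 (limma adjusted p = 0.00802), a call that ended when GC content and length were corrected for as well (-0.05, limma adjusted p = 0.331). CKS1B, a small adaptor of cyclin-dependent kinases, had 343, 334 and 352 FPKM in siDUB1 libraries, against 280.4, 296 and 302 FPKM in siControl libraries, without overlap, and passed without siDUB1 replicate 3 (0.21, limma adjusted p = 0.00417) but not with it (limma adjusted p = 0.101). CKS2, its paralogue, overlapped, with 176, 168 and 139.6 FPKM in siDUB1 libraries, against 147, 176 and 161 FPKM in siControl libraries. CCNA2, cyclin A2, had 43.2, 45.5 and 17.3 FPKM in siDUB1 libraries, against 49.4, 46.3 and 49.3 FPKM in siControl libraries, and did not pass in either fit. CCNA2 overlaps EXOSC9, which reached 27.24 FPKM.

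Of the 3 mitotic kinases, none passed with all libraries in limma, and none had an unadjusted p under 0.05. NEK2, which separates the centrosomes, had 21.3, 22.6 and 9.38 FPKM in siDUB1 libraries, against 17.2, 18.3 and 18.7 FPKM in siControl libraries. Replicates 1 and 2 were above all siControl libraries and replicate 3 far below them, so the change was -0.11 with all libraries and a rise of 0.27 without replicate 3 (limma adjusted p = 0.00243). PLK1, the Polo kinase, showed the opposite order, with 88.8, 86.4 and 107 FPKM in siDUB1 libraries, against 96.0, 95.1 and 93.2 FPKM in siControl libraries. Its limma adjusted p was 0.909 with all libraries and 0.0562 without replicate 3. AURKA, the Aurora kinase of spindle poles, had 47.9 to 66.6 FPKM in siDUB1 libraries, against 59.2 to 63.7 FPKM in siControl libraries.

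The chromosomal passenger complex corrects faulty attachments at the inner centromere, and without siDUB1 replicate 3 all 3 of its genes in the set rose, where 31.7% of all genes tested did. With a correction for GC content and length as well, 2 of the 3 did, BIRC5 and INCENP. CDCA8, a further subunit of the complex, was counted in the wider list given below and was named after its values were seen. CDCA8 did not pass without siDUB1 replicate 3 (0.13, limma adjusted p = 0.108). With the correction as well it did not pass either (0.13, limma adjusted p = 0.1015). BIRC5, or survivin, had 35.8, 35.1 and 40.6 FPKM in siDUB1 libraries, against 29.2, 28.2 and 30.3 FPKM in siControl libraries. AURKB, its kinase, had 91.3, 84.0 and 110.0 FPKM in siDUB1 libraries, against 80.3, 80.6 and 78.9 FPKM in siControl libraries. In both genes every siDUB1 library was above every siControl library, replicate 3 the highest, and both missed the threshold with all libraries (0.33 with limma adjusted p = 0.064 for BIRC5, 0.24 with 0.19 for AURKB). Without replicate 3 the changes were 0.27 (limma adjusted p = 0.000943) for BIRC5 and 0.13 (limma adjusted p = 0.0441) for AURKB. With the correction, AURKB did not pass without replicate 3 (0.03, limma adjusted p = 0.542) and its change with all libraries was 0.00. INCENP, the scaffold, had 12.5, 13.4 and 7.70 FPKM in siDUB1 libraries, against 12.4, 10.3 and 10.9 FPKM in siControl libraries. It narrowly passed without replicate 3 (0.20, limma adjusted p = 0.0483), and its change with all libraries was -0.03.

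Among 5 spindle checkpoint genes, whose products delay anaphase until every kinetochore is attached, none passed with all libraries in limma (1 lower at an unadjusted p under 0.05). In all 5, replicate 3 was the lowest of the 6 libraries, as it was in 52.5% of all genes tested. BUB1, a checkpoint kinase, had 32.1, 31.7 and 12.8 FPKM in siDUB1 libraries, against 27.3, 25.0 and 26.6 FPKM in siControl libraries, a change of -0.15 with all libraries and a rise of 0.27 without replicate 3 (limma adjusted p = 0.00137). BUB3, its binding partner, had 73.9, 74.3 and 57.5 FPKM in siDUB1 libraries, against 81.1, 83.7 and 84.9 FPKM in siControl libraries, all below, and fell by 0.17 without replicate 3 (limma adjusted p = 0.00976). In siDUB1 replicates 1 and 2 the kinase was thus above, and its partner below, every siControl library. BUB1B, the kinase-like subunit BubR1, MAD2L1, which seeds the inhibitory complex, and TTK passed in neither fit. BUB1B had 6.81 to 17.1 FPKM in siDUB1 libraries, against 16.8 to 17.3 FPKM in siControl libraries, and MAD2L1 3.17 to 11.8 FPKM in siDUB1 libraries, against 9.74 to 11.6 FPKM in siControl libraries. TTK, the kinase MPS1, had 12.0, 11.7 and 4.41 FPKM in siDUB1 libraries, against 11.8, 11.8 and 11.9 FPKM in siControl libraries, with replicates 1 and 2 close to the siControl level and replicate 3 far below it.

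Anaphase is set off by the anaphase-promoting complex and separase, and 4 genes of that step were followed. PTTG1 rose, as given above. UBE2C, the ubiquitin-conjugating enzyme of the complex, had 282, 287 and 269 FPKM in siDUB1 libraries, against 248, 252 and 262 FPKM in siControl libraries, every one higher, and passed without replicate 3 (0.16, limma adjusted p = 0.0133) but not with it (0.14, limma adjusted p = 0.25). Corrected for GC content and length it did not pass in either case, with 0.09 without replicate 3 (limma adjusted p = 0.0725) and 0.01 with it (limma adjusted p = 0.967). CDC20, the activator of the complex, had 156, 145 and 202 FPKM in siDUB1 libraries, against 151, 149 and 146 FPKM in siControl libraries. Replicates 1 and 2 lay on either side of the siControl values and replicate 3 well above them, and it passed in neither fit. ESPL1, separase itself, had 9.20 to 10.4 FPKM in siDUB1 libraries, against 10.8 to 11.3 FPKM in siControl libraries, without overlap (limma adjusted p = 0.348).

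At kinetochores and centromeres, none of 7 genes passed with all libraries in limma (1 lower at an unadjusted p under 0.05), and without siDUB1 replicate 3, 3 rose and 2 fell, where 31.7% of all genes tested rose and 25.6% fell. CENPA, the histone H3 variant that marks centromeres, had 21.0, 21.4 and 11.9 FPKM in siDUB1 libraries, against 14.7, 15.6 and 16.4 FPKM in siControl libraries. HJURP, the chaperone that loads it, had 39.4, 39.2 and 20.9 FPKM in siDUB1 libraries, against 44.1, 41.2 and 44.9 FPKM in siControl libraries. Without replicate 3 the change was 0.42 for CENPA (limma adjusted p = 9.79e-05) and -0.14 for HJURP (limma adjusted p = 0.041). With the GC and length correction as well, CENPA still passed (0.40, limma adjusted p = 0.00013) and HJURP did not (-0.10, limma adjusted p = 0.0675). CENPE, a kinesin that carries chromosomes to the spindle equator, was low, with 2.97, 3.55 and 0.87 FPKM in siDUB1 libraries, against 2.15, 2.15 and 2.01 FPKM in siControl libraries. CENPF, a protein of the outer kinetochore, had 11.2, 11.9 and 6.85 FPKM in siDUB1 libraries, against 8.73, 8.20 and 8.14 FPKM in siControl libraries. Both had replicates 1 and 2 above every siControl library and replicate 3 below, and both rose without replicate 3, by 0.45 (limma adjusted p = 0.000972; 0.70 with the correction) for CENPE and 0.43 (limma adjusted p = 0.000207) for CENPF. SPC25, a subunit of the NDC80 complex that grips microtubules, had 22.4, 21.7 and 17.6 FPKM in siDUB1 libraries, against 23.6, 27.0 and 26.9 FPKM in siControl libraries. It fell without replicate 3 (-0.22, limma adjusted p = 0.0123), while NDC80 and NUF2, subunits of the same complex, had changes of 0.14 and 0.11 there and did not pass. SPC25 overlaps NOSTRIN in the genome, which reached 18.85 FPKM.

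Spindle motors and assembly factors made up 9 of the genes. In limma none passed with all libraries (1 higher and 1 lower at an unadjusted p under 0.05), and without siDUB1 replicate 3, 3 rose and 1 fell, beside the same 31.7% and 25.6%. KIF11, the kinesin that pushes spindle poles apart, had 11.4, 11.6 and 6.74 FPKM in siDUB1 libraries, against 16.3, 13.9 and 15.6 FPKM in siControl libraries, every siDUB1 value lower. Its change was -0.61 (SE 0.21, limma adjusted p = 0.101) with all libraries and -0.38 (limma adjusted p = 0.000726) without replicate 3. Its transcripts are poor in GC, at 38.3%, and corrected for GC content and length the changes were -0.17 (limma adjusted p = 0.15) and -0.18 (limma adjusted p = 0.0187). KIF2C, a kinesin that depolymerises microtubules at the centromere, was higher in every siDUB1 library, with 38.7, 38.7 and 32.5 FPKM in siDUB1 libraries, against 30.5, 29.7 and 31.4 FPKM in siControl libraries (0.33 without replicate 3, limma adjusted p = 0.000163). HMMR, a microtubule-associated hyaluronan receptor, had 13.9, 13.5 and 6.44 FPKM in siDUB1 libraries, against 9.18, 9.12 and 9.65 FPKM in siControl libraries. Replicates 1 and 2 were well above the siControl libraries and replicate 3 was below them, with a rise of 0.52 without replicate 3 (limma adjusted p = 2.77e-05) and a change of 0.19 with it (limma adjusted p = 0.646). DLGAP5, or HURP, which stabilises the fibres attached to kinetochores, had 26.5, 26.0 and 15.8 FPKM in siDUB1 libraries, against 23.2, 22.8 and 24.2 FPKM in siControl libraries (0.16 without replicate 3, limma adjusted p = 0.0242; 0.26 with the correction as well). TPX2, the activator of Aurora A, KIF4A, a chromosome-bound kinesin, NUSAP1 and TACC3, which stabilise spindle microtubules, and GTSE1 passed in neither fit, with changes from -0.25 in GTSE1 to 0.06 in TACC3 with all libraries. Of these, TPX2 was the highest, at 84.1 to 94.3 FPKM in siDUB1 libraries, against 87.0 to 89.4 FPKM in siControl libraries, and KIF4A the lowest, at 5.93 to 9.39 FPKM in siDUB1 libraries, against 8.62 to 9.62 FPKM in siControl libraries. TACC3 overlaps TMEM129, which reached 29.54 FPKM.

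The genes of the central spindle and cytokinesis held the steepest falls. Of 8, only CEP55 fell with all libraries, where 5.92% of all genes tested did. Without siDUB1 replicate 3, 3 fell and 1 rose, 37.5% and 12.5%, beside 25.6% and 31.7% of all genes tested. KIF23, the kinesin of the centralspindlin complex, had 18.9, 20.4 and 10.1 FPKM in siDUB1 libraries, against 28.6, 30.1 and 27.3 FPKM in siControl libraries. Its highest siDUB1 value was below its lowest siControl value, with a change of -0.82 (SE 0.25, limma adjusted p = 0.0761) with all libraries and -0.52 (limma adjusted p = 1.61e-05) without replicate 3. Its partner RACGAP1 had 14.4 to 34.2 FPKM in siDUB1 libraries, against 34.5 to 35.8 FPKM in siControl libraries, and passed in neither fit. ANLN, the scaffold anillin of the contractile ring, had 37.6, 39.9 and 12.0 FPKM in siDUB1 libraries, against 47.0, 42.0 and 48.6 FPKM in siControl libraries. It fell without replicate 3 (-0.24, limma adjusted p = 0.00734), and the change with all libraries was -0.77 (SE 0.43). ANLN overlaps MATCAP2, which reached 4.38 FPKM. KIF20A, a motor of the central spindle, had 23.0, 24.3 and 17.8 FPKM in siDUB1 libraries, against 21.4, 21.1 and 20.5 FPKM in siControl libraries, and rose without replicate 3 (0.16, limma adjusted p = 0.026). KIF20A overlaps CDC23, which reached 15.48 FPKM. PRC1, the crosslinker of central spindle microtubules, passed in neither fit, with 47.1, 48.2 and 39.7 FPKM in siDUB1 libraries, against 43.1, 46.5 and 46.1 FPKM in siControl libraries. ECT2, the exchange factor that activates RhoA at the cleavage site, had 32.8, 31.9 and 9.43 FPKM in siDUB1 libraries, against 31.4, 30.3 and 32.9 FPKM in siControl libraries, a change of -0.52 (SE 0.45). Replicates 1 and 2 lay within the siControl range and replicate 3 far below it. KIF14, a kinesin that brings citron kinase to the midbody, had 0.77 to 2.91 FPKM in siDUB1 libraries, against 2.47 to 3.04 FPKM in siControl libraries, and passed in neither fit.

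The remaining 3 genes are read most often as marks of dividing cells, and none passed in either limma fit, or had an unadjusted p under 0.05. FOXM1, a transcription factor of G2 and M genes, had 61.8, 63.2 and 53.6 FPKM in siDUB1 libraries, against 67.6, 64.6 and 63.8 FPKM in siControl libraries. MKI67, which encodes Ki-67, had 23.9, 26.5 and 16.4 FPKM in siDUB1 libraries, against 26.6, 25.3 and 23.1 FPKM in siControl libraries. TOP2A, the topoisomerase that untangles sister chromatids, had 39.7, 41.9 and 13.7 FPKM in siDUB1 libraries, against 41.8, 38.4 and 42.3 FPKM in siControl libraries. In all 3, replicate 3 was the lowest library, as in 52.5% of all genes tested, and without it their median change was 0.00. FOXM1 overlaps RHNO1, which reached 41.87 FPKM.

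**Figure D3:**
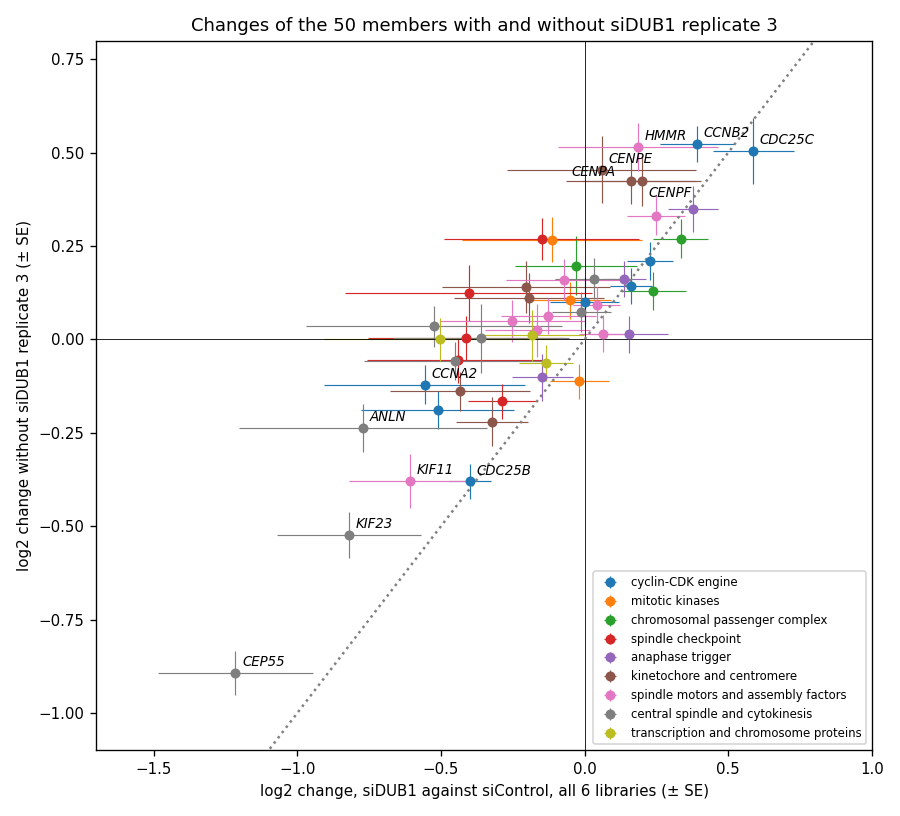
The log2 change of each of the 50 genes without siDUB1 replicate 3 (vertical axis) against its change with all 6 libraries (horizontal axis), with standard errors and the role in colour. Of the 50 points, 41 lie above the dotted line of equality, with medians of 0.07 without replicate 3 and -0.13 with it, and CEP55, KIF23, KIF11 and CDC25B are low on both axes.

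The genes differed widely in level, with siControl means from 2.10 FPKM in CENPE to 293 FPKM in CKS1B and a median of 31.0 FPKM, against 11.9 FPKM over all genes tested. The siControl libraries agreed closely, with a median coefficient of variation of 3.83% over the 50 genes, and siDUB1 replicates 1 and 2 differed from each other by a median of 3.01%. Replicate 3 was farther away. It was the lowest of the 6 libraries in 38 of the 50 genes (76%), against 52.5% of all genes tested. In 14 of the 50, replicates 1 and 2 were above every siControl library and replicate 3 below every one: AURKA, NEK2, INCENP, BUB1, CENPA, CENPE, CENPF, NDC80, TPX2, NUSAP1, DLGAP5, HMMR, PRC1 and KIF20A. The share of all genes tested with this order was not counted, so it cannot be called particular to the 50. Replicates 1 and 2 were above every siControl library in 46% of the 50 and in 38.9% of all genes tested. The groups of 3 did not overlap in 9 genes that were higher and 13 that were lower in siDUB1 cells, 18% and 26% of the 50, beside 24.8% and 28.5% of all genes tested and 53.3% in either direction.

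The distance of replicate 3 from replicates 1 and 2 followed the GC content of the transcripts. Over the 50 genes its correlation with GC content was r = 0.661, and over 10907 genes it was r = 0.692, a description of 3 libraries across genes that are not independent. The 25 genes under 45% GC had a median distance of -0.99 on the log2 scale, 23 of them negative, and all 3338 tested genes under 45% had -0.79. The 13 genes of 45% to 50% had a median of -0.40, 11 of them negative, against -0.48 for all 2010 such genes. The 12 genes of at least 50% GC had a median of -0.07, against 0.16 for all 5559 such genes. The change without replicate 3 had a correlation of r = 0.026 with GC content over the 50 genes and of r = 0.178 over the 10907. A correction for GC content and length, with all 6 libraries, gave 6 genes that rose (CCNB2, CDC25C, PTTG1, CENPE, CENPF and HMMR) and 4 that fell (CDC25B, PLK1, KIF23 and CEP55), 12% and 8%, beside 12.1% and 12.2% of 10907 genes, or 24.4% in either direction. With the correction and without replicate 3, 23 rose and 8 fell, beside 32% and 26.2%, or 58.2% in either direction. Of the 27 genes that had passed without replicate 3 and without the correction, CDK1, AURKB, UBE2C and HJURP no longer did, and PLK1 (lower), AURKA, MAD2L1, NDC80, NUF2, TPX2, NUSAP1 and KIF14 (all higher) passed in addition. What made replicate 3 differ was not tested.

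**Figure D4:**
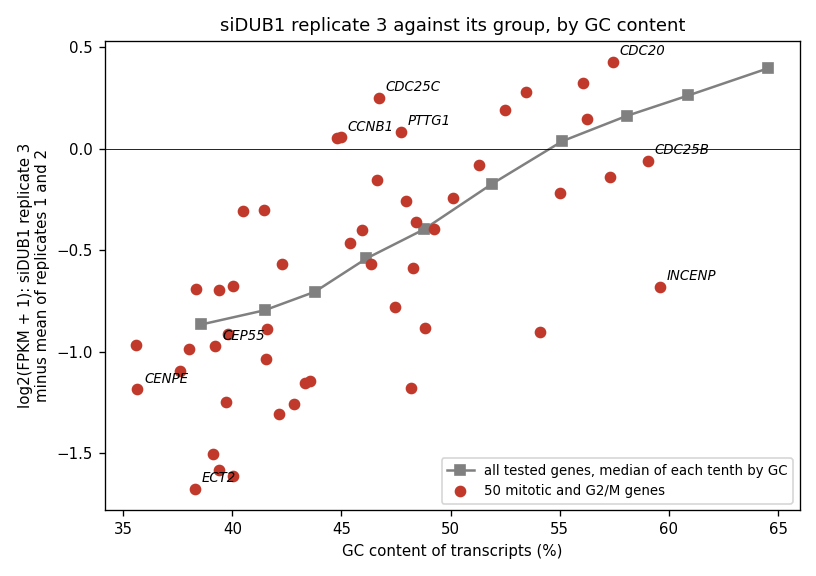
The difference of siDUB1 replicate 3 from the mean of replicates 1 and 2 in log2(FPKM + 1), against the GC content of transcripts in percent, for the 50 genes (circles) and as medians of 10 equal bins of all tested genes ordered by GC (squares). The bin with the lowest GC has a median of -0.86 and the bin with the highest 0.40, and 25 of the 50 genes, whose median GC is 45.2%, lie under 45%.

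A wider list of 101 mitotic genes outside the 50 was followed for context, and it too was drawn up with earlier results of these data known. Without siDUB1 replicate 3, 16 rose (15.8%) and 37 fell (36.6%), beside 31.7% and 25.6% of all genes tested. With all libraries 3 rose (2.97%) and 1 fell (0.99%), beside 8.13% and 5.92% of all genes tested. The genes that rose were ANAPC16, a subunit of the anaphase-promoting complex (16.5, 17.3 and 14.5 FPKM in siDUB1 libraries, against 10.8, 11.8 and 10.8 FPKM in siControl libraries, limma adjusted p = 0.0376), NUMA1, which anchors microtubules at the poles (24.3, 25.6 and 28.5 FPKM in siDUB1 libraries, against 20.03, 20.1 and 18.3 FPKM in siControl libraries, limma adjusted p = 0.0478), and ENSA. ENSA, an inhibitor of the phosphatase PP2A that protects CDK1 substrates, had 160.4, 157 and 185 FPKM in siDUB1 libraries, against 99.95, 112 and 108 FPKM in siControl libraries (0.64, limma adjusted p = 0.0125). CENPQ, of the constitutive centromere network, fell, with 1.81, 2.28 and 1.68 FPKM in siDUB1 libraries, against 4.73, 4.94 and 5.18 FPKM in siControl libraries (-1.03, limma adjusted p = 0.0067). As with the 50, these 4 calls were lost when any siControl library was left out, with limma adjusted p-values of 0.0557 to 0.0617 for CENPQ, 0.0711 to 0.0832 for ENSA, 0.133 to 0.169 for ANAPC16 and 0.159 to 0.201 for NUMA1. ANAPC16 and NUMA1 were also lost without siDUB1 replicate 1 (0.11 and 0.0902) or replicate 2 (0.0921 and 0.0911), and NUMA1 after the GC and length correction (0.17 on the log2 scale, limma adjusted p = 0.208).

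Genes of cohesin and condensin, the rings that hold and compact chromatids, and of their regulators had negative changes with all libraries in 19 of 19. The share of all genes tested with a negative change was not counted, and the median of all genes was -0.06. None of the 19 passed, with NCAPD2 (-0.43, limma adjusted p = 0.0528) and NCAPG (-0.45, limma adjusted p = 0.0631) nearest to the threshold. At an unadjusted p under 0.05 in limma, 4 were lower. Replicate 3 was the lowest library in 18 of the 19, and in 52.5% of all genes tested. Without it, 1 rose and 9 fell, beside 31.7% and 25.6% of all genes tested. With the GC and length correction as well, 2 rose (10.5%) and 8 fell (42.1%), beside 32% and 26.2%. In that fit 10 changes were negative and 9 positive, with a median of -0.08. Against the same 31.7% and 25.6%, of 16 subunits and cofactors of the anaphase-promoting complex, 5 rose and 3 fell without replicate 3, of 23 other kinetochore and centromere genes 2 rose and 10 fell, and of 17 other motors and centrosome genes 3 rose and 2 fell. Of 13 subunits of DREAM, MuvB and NF-Y, none passed with all libraries in limma (3 lower at an unadjusted p under 0.05), and without replicate 3, 2 rose and 5 fell. The 2 that rose there, named after their values were seen, were RBL2 and RBBP4. RBL2, the pocket protein p130 of DREAM, had 7.42, 7.92 and 2.23 FPKM in siDUB1 libraries, against 4.45, 3.95 and 3.94 FPKM in siControl libraries (0.29, limma adjusted p = 0.61; 0.76 without replicate 3, limma adjusted p = 6.4e-06). RBBP4, a histone-binding subunit of MuvB, had 14.2, 16.2 and 5.92 FPKM in siDUB1 libraries, against 13.3, 11.4 and 14.0 FPKM in siControl libraries (-0.19, limma adjusted p = 0.716; 0.22 without replicate 3, limma adjusted p = 0.0403). In both, replicates 1 and 2 were above every siControl library and replicate 3 below. MYBL2, the activating partner of MuvB, had 249.6, 239 and 339.9 FPKM in siDUB1 libraries, against 364, 375 and 360.2 FPKM in siControl libraries (-0.43, limma adjusted p = 0.099; -0.58 without replicate 3, limma adjusted p = 1.2e-06). NFYC, a subunit of NF-Y, had 22.1, 23.1 and 21.6 FPKM in siDUB1 libraries, against 26.6, 27.9 and 26.4 FPKM in siControl libraries (limma adjusted p = 0.088).

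**Figure D5:**
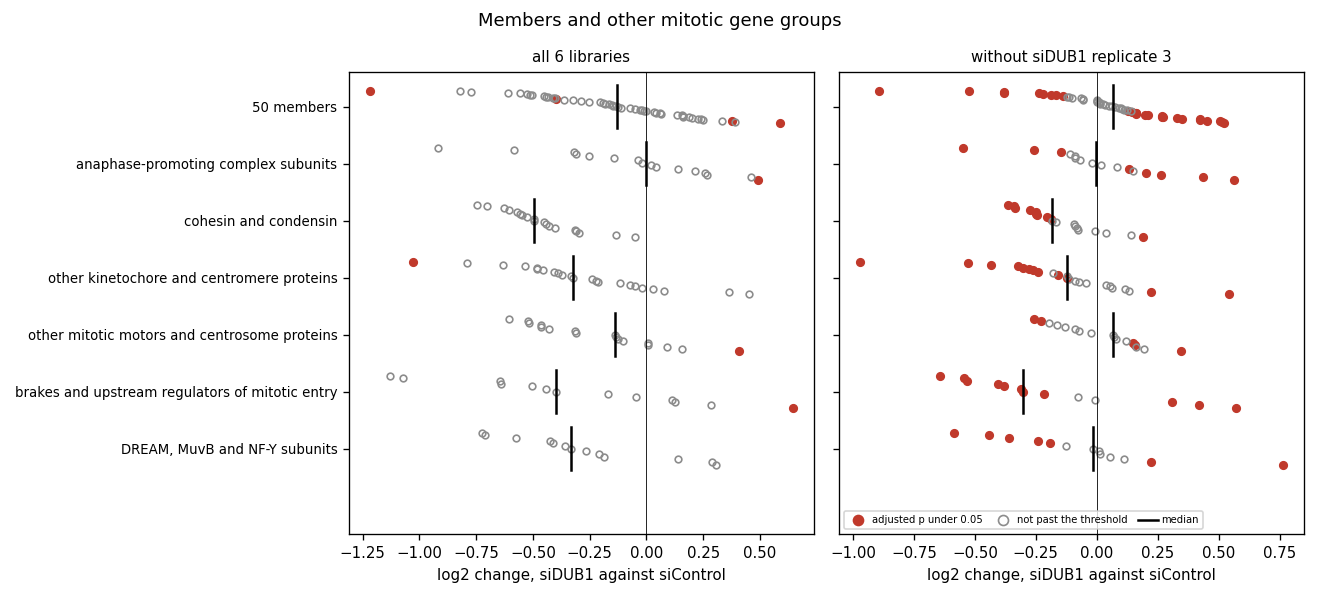
The log2 change of the 50 genes and of 6 groups of other mitotic genes, with all 6 libraries (left) and without siDUB1 replicate 3 (right). Each point is 1 gene, filled where its limma adjusted p was under 0.05, and the bar is the group's median, which for the 50 genes was -0.13 at left and 0.07 at right and for cohesin and condensin -0.49 and -0.18.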

How the data were processed

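Messenger RNA was measured in 6 libraries of Trizol-extracted total RNA from AGS cells on the BGISEQ-500, per the labels' protocols, 3 of siDUB1 and 3 of siControl transfections, grouped by the transfection named in each label. The deposited values were FPKM with 2 decimals per NCBI Gene ID, per the file headers, and the submitters' processing notes name GRCh38. Aligner, counter, annotation and strand setting: not given in the sources used here. FPKM is scaled to each library's mapped fragments, so a rise in abundant genes lowers the rest, and it keeps no depth, so no counting interval can be given. A RefSeq GRCh38.p14 gene table gave symbols and coordinates for 18433 of the 18597 IDs.

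The 50 genes, their roles, the wider list and the rules for naming genes were chosen with earlier results of these data known. By those rules all 50 are named, values of each library are given for the genes with the smallest and largest adjusted p of each role and for those whose call changed without siDUB1 replicate 3, and the wider list is represented by up to 2 genes a group and direction. A few more were given in full after their values were seen.

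Genes with at least 1 FPKM in at least 3 libraries were tested on log2(FPKM + 1), a scale that understates the change of low genes, with limma 3.58.1 in R 4.3.3 (eBayes with a trend), two-sided, and Benjamini-Hochberg adjustment over all 10994 genes at 0.05. With 3 libraries a side, the smallest two-sided p of an exact permutation test is 0.1. The fit was checked on simulated data with independent noise for each gene and library. That check held no library set apart across many genes, so it cannot speak to the effect of siDUB1 replicate 3. Alternatives were other scalings, filters and pseudocounts, variants of limma, the replicate block, leaving out each library, and a correction for GC content and length (natural splines of 4 degrees of freedom, medians over GENCODE transcripts, known for 99.2% of tested genes). Promoter windows came from RefSeq tables, using the start shared by most transcripts.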

Additional observations from a re-analysis of the deposited data

How the results depend on the processing

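None of the 4 calls among the 50 genes reversed, and CDC25B and CEP55 kept theirs under 11 of 18 alternatives and CDC25C and PTTG1 under 9. Against 2 genes of the 50 that rose and 2 that fell, size factors gave 1 that rose, scaling each library to the same FPKM sum gave 0 and 1 (3 and 7 at an unadjusted p under 0.05 in limma), no filter gave 1 and 1, limma without the trend gave 1 that rose, quantile normalization gave 4 that fell, the correction for GC content and length gave 6 and 4, and that correction without siDUB1 replicate 3 gave 23 and 8. Leaving out single libraries gave 0 to 18 that rose and 0 to 9 that fell (2 to 18 and 3 to 11 at an unadjusted p under 0.05 in limma). With size factors CCNB2 rose and KIF23 fell as well, and CDC25B, CDC25C and PTTG1 missed the threshold. Of all genes tested, 894 rose and 651 fell, with 1364 and 1190 after quantile normalization, 587 higher after scaling each library to the same FPKM sum, 1336 lower after the GC and length correction, and 3495 and 2854 with that correction without siDUB1 replicate 3. Leaving out single libraries gave 54 to 3481 higher and 71 to 2818 lower. The scaling to the same sum shifted the median of all genes by -0.14 on the log2 scale, and relative to it the median of the 50 genes was -0.07 as with the deposited values. After the GC and length correction, the median of the 50 genes was 0.06 above that of all genes.

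In the wider list, 3 rose and 1 fell, with 5 and 14 after quantile normalization, 1 and 4 after scaling to the same sum, 3 that fell with size factors, 6 and 16 after the GC and length correction, and 21 and 36 with it and without siDUB1 replicate 3. The corrected shares were 5.94% and 15.8% with all libraries, beside 12.1% and 12.2% of all genes. They were 20.8% and 35.6% without siDUB1 replicate 3, beside 32% and 26.2% of all genes. Leaving out single libraries gave 0 to 16 and 0 to 37. With the replicate number as a block, 81 of all genes rose and 98 fell, with 0 of the 50 genes and 0 of the wider list in either direction. At an unadjusted p under 0.05 that limma fit gave 4 higher and 4 lower among the 50 genes and 4 and 16 in the wider list. The numbers share no stated origin, and deviations of same-numbered libraries correlated at 0.254, -0.491 and -0.227, so the block was not used. Only 1 of the 6 libraries correlated best with its own number.

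Without siDUB1 replicate 3, changes turned positive and passed the threshold in NEK2, INCENP, BUB1 and DLGAP5. Of the wider list, they did so in RBBP4 and in SMC1A (-0.31 with all libraries, 0.19 without replicate 3, limma adjusted p = 0.0377). Leaving out single libraries gave -0.33 to 0.27 for NEK2, -0.17 to 0.20 for INCENP, -0.36 to 0.27 for BUB1, -0.19 to 0.16 for DLGAP5 and -0.43 to 0.22 for RBBP4. With the GC and length correction as well, this held for NEK2 (0.31), INCENP (0.20), BUB1 (0.32), DLGAP5 (0.26), AURKA (0.14), MAD2L1 (0.32), NDC80 (0.17), NUF2 (0.18), NUSAP1 (0.14) and KIF14 (0.22). Of the wider list, it held there for RBBP4 (0.22), SMC1A (0.275), SMC3 (0.175), ANAPC13 (0.173), KNL1 (0.191), KIF18A (0.389), KIF20B (0.382) and ASPM (0.387). The same correction without that library ended the calls of CDK1 (-0.05, limma adjusted p = 0.331), AURKB (0.03, 0.542), UBE2C (0.09, 0.0725) and HJURP (-0.10, 0.0675). The cause was not tested. The share of promoters with TTTGAA was 71.4% when the start nearest the principal transcript was used, an alternative added after the data were seen. Depth is unknown, so how far it limits the low genes CENPE and KIF14 cannot be said.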

Other observations

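Among 13 brakes and upstream regulators of mitotic entry, ENSA rose with all libraries and none fell in limma (5 lower at an unadjusted p under 0.05). Without siDUB1 replicate 3, 3 rose (23.1%) and 8 fell (61.5%), beside 31.7% and 25.6% of all genes tested. WEE1, a kinase that places an inhibitory phosphate on CDK1, had 9.37, 10.1 and 3.40 FPKM in siDUB1 libraries, against 16.7, 14.6 and 15.9 FPKM in siControl libraries. Its change was -1.07 with all libraries (limma adjusted p = 0.0912) and -0.64 without replicate 3 (limma adjusted p = 1.02e-05). CDKN1A, the inhibitor p21, had 492, 477 and 603 FPKM in siDUB1 libraries, against 705, 719.5 and 697 FPKM in siControl libraries (limma adjusted p = 0.0525). FBXO5, an inhibitor of the anaphase-promoting complex, had 12.1, 12.4 and 2.85 FPKM in siDUB1 libraries, against 18.0, 17.0 and 19.7 FPKM in siControl libraries (limma adjusted p = 0.155). In all 3 every siDUB1 library was below every siControl library, as in 28.5% of all genes tested, and without replicate 3 all 3 fell. PKMYT1, another inhibitory kinase of CDK1, also fell without replicate 3 (-0.30, limma adjusted p = 0.000422), but its groups overlapped. It had 40.0, 37.2 and 51.0 FPKM in siDUB1 libraries, against 48.9, 47.9 and 46.5 FPKM in siControl libraries. The 8 that fell were not all brakes, since MASTL and ARPP19, which act with ENSA to restrain the phosphatase PP2A, were among them, and CHEK2, a checkpoint kinase, and BORA, an activator of PLK1, rose. Other than ENSA, these genes were named after their values were seen.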
